A study of Mus musculus with 23 samples.

Results

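The genes described here are 34 mitotic cell cycle genes, out of 36793 genes counted in an RNA sequencing study of mouse head and neck tumours. They were taken by name, as genes known to act in cell division. All of them were matched to a gene identifier, all passed the filter on low counts in every fit, and the lowest count of any of them in any library was 52. The study sequenced mRNA of macrophages sorted from implanted tumours, of the tumour lines in culture and of colonies grown from sorted macrophages. It holds 23 libraries in 8 groups of 2 or 3.

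SCCVII is a squamous carcinoma line, implanted in C3H/HeJ mice. MEER cells are mouse oropharyngeal epithelium carrying an active Ras, implanted in C57/Bl6 mice, and they were used in an HPV-positive form, which carries papillomavirus oncogenes, and in an HPV-negative form. SCCVII is HPV-negative per the labels. The colony groups, which the labels call macrophage progenitor colonies, are SCCVII colonies (2 libraries) and HPV-negative MEER colonies (3 libraries), each taken after 9 days of culture in haematopoietic stem cell medium. The macrophage groups are those of SCCVII, HPV-positive MEER and HPV-negative MEER tumours (3 libraries each). These cells were sorted from subcutaneous tumours as Gr1-negative cells with CD45, CD11b and strong F4/80 staining. Each library pooled 3 to 4 mice. The lines are SCCVII, HPV-positive MEER and HPV-negative MEER (3 libraries each), and their libraries are aliquots of cultured cells. Each HPV status is a single line, and tumour line and mouse strain cannot be told apart between SCCVII and MEER. The p-values for lines measure the spread between aliquots, which may be technical.

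Mitosis is driven by cyclin-dependent kinase 1 bound to cyclins A and B, helped by the Polo-like and Aurora kinases. Chromosomes are condensed, attached through kinetochores to the spindle and held until a checkpoint is satisfied. The anaphase-promoting complex then marks cyclin B and securin for destruction, and the chromosomes part. Most of the transcripts involved rise in G2 and mitosis and are low in cells that have left the cycle, so their summed level is widely read as a sign of cell division. Tumour macrophages come largely from monocytes, and some divide within the tumour. In bulk RNA, fewer dividing cells and less of a transcript in each dividing cell cannot be told apart.

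Genes of this kind are repressed in resting cells by the DREAM complex and induced by MuvB with B-MYB and FOXM1, which act at a promoter element named CHR, often beside CCAAT boxes bound by NF-Y. RefSeq promoter windows on GRCm38.p6, from 250 bases before to 50 after the start, were matched for 30 of the 34 genes (31 windows, since Prc1 has 2). Kif20a, Aurkb, Ccna2 and Tpx2 had no window. The CHR element was searched on both strands by the letters TTTGAA and by the variant TTCGAA, and the CCAAT box on both strands by the letters CCAAT. On the printed strand a reverse match to the first of these reads TTCAAA, and a reverse CCAAT box reads ATTGG. A CHR match and a CCAAT match can share a single base at their ends. A match to the CHR letters was found in 23 of the 31 windows (74.2%), against 19.2% of all 32851 windows. It was in 62.9% of 35 windows of another list of mitotic genes and in 17.2% of 29 windows of DNA replication genes. A CCAAT box was found in 77.4% of the mitotic windows, against 37.4% of all windows, and both motifs together in 67.7%, against 7.52% of all windows. Such a match describes letters in a window and does not show that a factor binds there.

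The 110 bases before the start are shown for 7 genes whose levels the results turn on. They are given on the strand of the gene from 5′ to 3′. Of these genes, 5 have a match to the CHR letters searched and 2 have none. Matches to the CHR and CCAAT letters are in capitals, and other spellings of the CHR element were not searched. Cdk1 (chr10:69352913-69353022, minus strand) has 2 CHR elements, the nearer one 15 bases before the start. Cdc20 (chr4:118437344-118437453, minus strand), Ube2c (chr2:164769819-164769928, plus strand), Kif11 (chr19:37376272-37376381, plus strand) and Ncapg (chr5:45669815-45669924, plus strand) have 1 each, 18, 29, 19 and 30 bases before the start in that order. Ccnb1 (chr13:100786487-100786596, minus strand) and Cks2 (chr13:51645122-51645231, plus strand) have CCAAT boxes and no match to the CHR letters in the window. The other genes with no CHR match were Birc5, Cenpe, Mad2l1, Ncaph, Nuf2 and Nusap1.
Cdk1: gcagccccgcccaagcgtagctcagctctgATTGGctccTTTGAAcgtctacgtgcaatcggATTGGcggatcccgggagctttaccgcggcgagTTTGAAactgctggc
Cdc20: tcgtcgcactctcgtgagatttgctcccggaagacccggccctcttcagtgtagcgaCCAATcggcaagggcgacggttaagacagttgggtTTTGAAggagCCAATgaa
Ube2c: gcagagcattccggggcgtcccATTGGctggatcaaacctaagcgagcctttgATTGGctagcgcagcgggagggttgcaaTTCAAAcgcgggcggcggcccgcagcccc
Kif11: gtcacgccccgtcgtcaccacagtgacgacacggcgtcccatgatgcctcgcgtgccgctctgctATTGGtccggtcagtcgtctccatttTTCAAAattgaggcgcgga
Ncapg: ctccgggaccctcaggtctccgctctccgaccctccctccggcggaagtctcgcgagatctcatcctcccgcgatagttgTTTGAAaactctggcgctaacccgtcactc
Ccnb1: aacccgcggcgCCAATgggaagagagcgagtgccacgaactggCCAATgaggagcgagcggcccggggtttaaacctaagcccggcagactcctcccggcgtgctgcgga
Cks2: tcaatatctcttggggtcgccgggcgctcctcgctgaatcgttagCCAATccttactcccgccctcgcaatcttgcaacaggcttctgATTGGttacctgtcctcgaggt

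Library depth was 26848759 to 47609481 counts. Macrophage markers matched the labels of the sorted cells, whose Csf1r (the receptor for macrophage colony-stimulating factor) was 2480 to 3555 CPM (counts relative to library size, scaled by TMM). The colonies went against their label in part. Csf1r was 91.0 and 10.1 CPM in SCCVII colonies and 558, 5.21 and 0.664 CPM in HPV-negative MEER colonies, and the summed level of 11 macrophage markers was 14226 and 1187 CPM and 13172, 906 and 65.2 CPM in the same libraries, with 3 of the 11 at 0 in HPV-negative MEER colony libraries 2 and 3. Krt8, a keratin of epithelial cells, was 165, 179 and 213 CPM in the HPV-negative MEER colonies, against 160, 134 and 240 CPM in the line of that name. Cd34 was 972 and 1113 CPM in SCCVII colonies, against 973, 983 and 955 CPM in the SCCVII line, while the summed level of 9 epithelial markers was 195 and 266 CPM in those colonies, against 1008, 1063 and 1102 CPM in that line. These libraries are therefore called colonies by their label only, and each count that rests on them is also given without the 3 with Csf1r under 20 CPM. Among the macrophages, the library labelled 4 of HPV-negative MEER had more Krt8 (59.0 CPM, against 20.8 and 13.4 CPM in libraries 1 and 2).

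The summed level of the 34 genes set the groups apart. It was 311 and 359 CPM in SCCVII colonies and 1028, 411 and 374 CPM in HPV-negative MEER colonies. In macrophages it was 2621, 2884 and 2572 CPM in SCCVII tumours, 822, 840 and 1004 CPM in HPV-positive MEER tumours and 1704, 1856 and 1894 CPM in HPV-negative MEER tumours, so that no library of these macrophage groups overlapped another group. In lines it was 2876, 2903 and 2868 CPM in SCCVII, 3218, 3222 and 2736 CPM in HPV-positive MEER and 2128, 1340 and 1229 CPM in HPV-negative MEER. The SCCVII macrophages were thus near the SCCVII and HPV-positive MEER lines and above every library of the HPV-negative MEER line, and the first HPV-negative MEER line library stood well above the other two of its group.

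**Figure D1:**
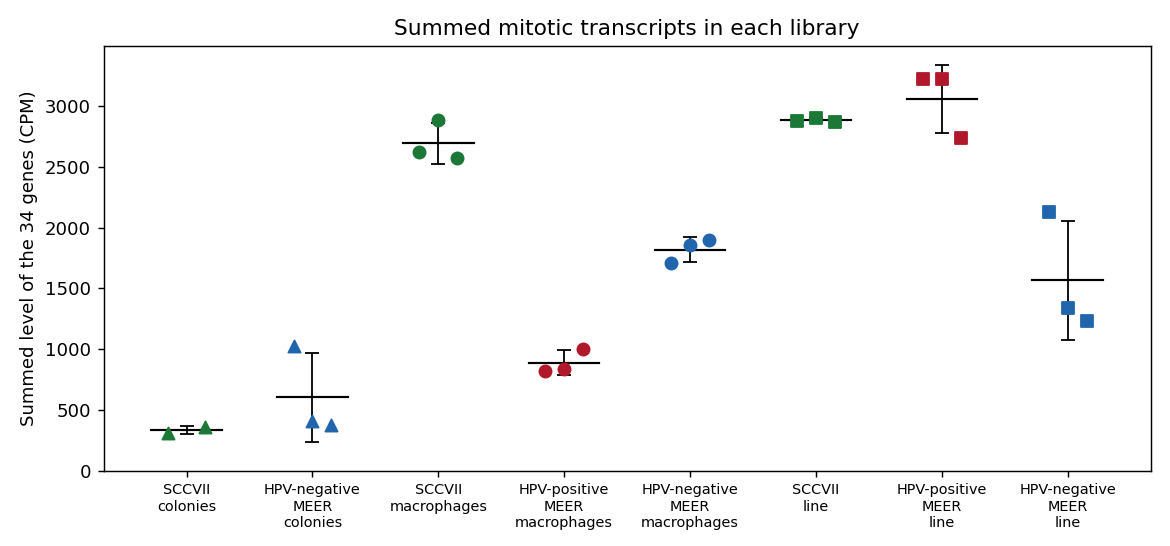
Summed level of the 34 mitotic genes (CPM, linear axis) in each of the 23 libraries, by group; points are libraries, the horizontal bar is the mean and the whiskers are 1 SD. The 3 macrophage groups do not overlap: SCCVII libraries lie between 2572 and 2884 CPM, HPV-positive MEER libraries between 822 and 1004 CPM and HPV-negative MEER libraries between 1704 and 1894 CPM.

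Per length, in TPM as the authors deposited them, the most abundant of the 34 in SCCVII macrophages were Top2a (148 ± 6.25 TPM, SD, n = 3), which untangles DNA, Birc5 (133 ± 5.02 TPM), the survivin subunit of the chromosomal passenger complex, and Cdk1 (111 ± 10.1 TPM). In HPV-positive MEER macrophages the first was Cenpa (50.5 ± 5.73 TPM), the histone H3 variant that marks centromeres, ahead of Top2a (40.9 ± 5.86 TPM) and Cdk1 (38.1 ± 2.17 TPM). Cenpa was above Top2a by more than the SD of either, while Top2a and Cdk1 lay within about their spread. In HPV-negative MEER macrophages Top2a (97.5 ± 7.91 TPM), Cdk1 (92.1 ± 0.733 TPM) and Birc5 (87.6 ± 6.8 TPM) led, and they likewise lie within their spread. Cdk1 had the highest mean in each line, with 229 ± 5.98 TPM in SCCVII, 273 ± 17.1 TPM in HPV-positive MEER and 179 ± 30.4 TPM in HPV-negative MEER. Next were Ube2c (236 ± 40.5 TPM) in HPV-positive MEER and Ccnb1 (125 ± 47.5 TPM) in HPV-negative MEER, each within about its spread of Cdk1. Knl1, the kinetochore scaffold, was lowest in 7 groups, between 0.38 TPM in SCCVII colonies and 13.1 TPM in the HPV-positive MEER line. The exception was the HPV-negative MEER line, where Cenpf (4.82 ± 3.23 TPM) and Knl1 (5.01 ± 2.26 TPM) were level within their spread.

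**Figure D2:**
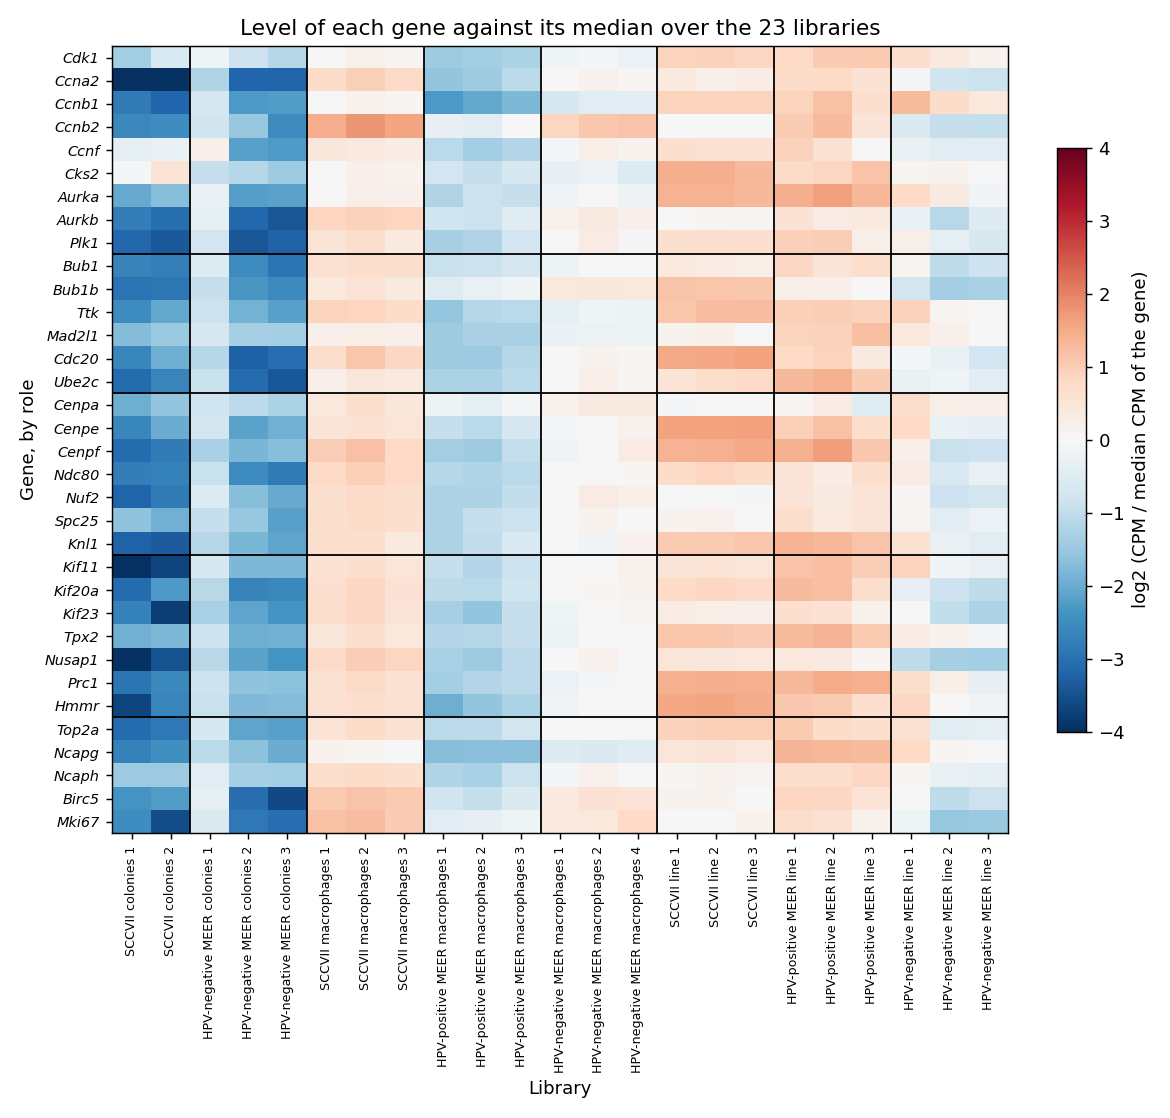
Level of each of the 34 genes (rows, ordered by role) in each of the 23 libraries (columns, by group) as log2 of its CPM over that gene's median CPM in all libraries. The colony and HPV-positive MEER macrophage libraries are below the median (blue) for most genes, and Ccnb2 is above it (red) in SCCVII and HPV-negative MEER macrophages.

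The first comparison asks whether macrophages differ with the HPV status of the MEER tumour they came from. All 34 genes were lower in macrophages of HPV-positive tumours, a call being an adjusted p of at most 0.05 in edgeR's quasi-likelihood test with Benjamini-Hochberg adjustment over 14085 genes, of which 25.9% were called lower and 22.8% higher. The median change of the 34 was -1.10 on the log2 scale (0.466-fold), against -0.05 for all genes tested. For all 34, every HPV-positive library was below every HPV-negative library, as held for 31.6% of all genes tested. Log2 changes are given with their SE and the adjusted p of this test throughout, from 3 libraries a group except for SCCVII colonies.

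The cyclins and kinases fell by different amounts. Ccnb1, the cyclin B1 partner of Cdk1, was 12.9, 15.1 and 18 CPM in macrophages of HPV-positive tumours, against 39.3, 46.4 and 47.2 CPM in those of HPV-negative tumours, a log2 change of -1.50 ± 0.12 (adjusted p = 1.2e-05). Ccna2, cyclin A2, was 25.5, 29.0 and 37.1 CPM against 76.9, 87.4 and 80.5 CPM in the same order of groups (-1.39 ± 0.13, adjusted p = 2.6e-05). Cdk1 was 26.2, 27.1 and 29.2 CPM in HPV-positive and 62.2, 66.9 and 59.0 CPM in HPV-negative tumour macrophages (-1.16 ± 0.07, adjusted p = 2.4e-06). All 9 of the cyclins and kinases fell, and at the small end Cks2, a small subunit of cyclin-dependent kinases, was 13.0, 11.7 and 14.1 CPM against 17.4, 18.8 and 14.9 CPM (-0.37 ± 0.11, adjusted p = 0.018). The call for Cks2 was lost without HPV-negative library 1 (-0.36) or 2 (-0.30) or without HPV-positive library 2 (-0.31).

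The checkpoint and anaphase genes fell as well, 6 of 6. Cdc20, the activator of the anaphase-promoting complex, was 13.1, 12.8 and 16 CPM in HPV-positive and 35.4, 38.8 and 37.7 CPM in HPV-negative tumour macrophages (-1.39 ± 0.12, adjusted p = 1.7e-05), and Ube2c, the ubiquitin-conjugating enzyme of that complex, was 17.4, 17.6 and 19.9 CPM against 42.2, 51.0 and 43.4 CPM (-1.29 ± 0.10, adjusted p = 9.3e-06). The checkpoint kinases Bub1 (-0.72) and BubR1, encoded by Bub1b (-0.71), fell less, and Bub1b was 47.3, 53.0 and 58.5 CPM against 87.7, 89.6 and 87.3 CPM. Of the 7 kinetochore genes, Nuf2, a subunit of the Ndc80 complex, had the largest change (-1.31 ± 0.10, adjusted p = 1.0e-05), and Cenpa had the smallest, with 41.2, 36.9 and 46.1 CPM against 53.8, 61.0 and 60.4 CPM (-0.47 ± 0.09, adjusted p = 0.0027). Hmmr, a spindle and hyaluronan-binding protein, averaged 10.1 ± 2.41 CPM against 28.9 ± 1.56 CPM (SD, n = 3 each) and had the largest change of the 7 spindle genes (-1.49 ± 0.14, adjusted p = 3.1e-05). Among the chromosome genes, Mki67, the Ki-67 proliferation marker, was 126, 136 and 151 CPM in HPV-positive and 222, 227 and 294 CPM in HPV-negative tumour macrophages (-0.83 ± 0.12, adjusted p = 0.00054).

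Markers of other cells moved with this comparison. The summed level of 6 dendritic cell markers was 185, 56.3 and 133 CPM in macrophages of HPV-positive tumours, against 14.1, 9.75 and 11.7 CPM in those of HPV-negative tumours, with none of the 6 at 0, and most of it was Ccr7 (151, 41.6 and 106 CPM in the HPV-positive group). The summed level of 9 epithelial markers was 527, 434 and 561 CPM against 107, 81.4 and 187 CPM, and most of it was Cdh1 (464, 367 and 497 CPM in the HPV-positive group), while Krt5 and Cldn4 were at 0 in at least 2 of 3 libraries of both groups. Summed markers of mast cells and basophils were 19.9, 9.93 and 16.4 CPM against 4.18, 3.58 and 4.12 CPM, and those of progenitors 23.8, 13.3 and 21.3 CPM against 7.58, 6.57 and 7.61 CPM, so that neither overlapped. Of these lists, 0 to 2 of 6 mast cell and basophil markers and 0 to 1 of 5 progenitor markers were at 0 in these libraries. Summed macrophage markers were 17085, 19312 and 17818 CPM against 26261, 29700 and 22256 CPM. Their part in the fall of the mitotic genes was not tested.

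SCCVII tumour macrophages, which differ from the MEER ones by tumour line and mouse strain, had the highest levels of the 3 macrophage groups. Against macrophages of HPV-negative MEER tumours, 29 of the 34 genes were higher and none lower (18.7% of 14085 genes were called higher and 20.5% lower), with a median of 0.57 on the log2 scale, against -0.02 for all genes. The levels of 31 of the 34 were above every HPV-negative library, as were those of 27.1% of all genes tested. Ttk, the checkpoint kinase MPS1, was 23.2, 22.6 and 20.8 CPM in SCCVII and 9.56, 11.0 and 10.9 CPM in HPV-negative MEER tumour macrophages (1.06 ± 0.13, adjusted p = 0.00019). Cenpf, a large kinetochore protein, was 60.9, 68.6 and 53.1 CPM against 27.0, 30.7 and 38.9 CPM (0.90 ± 0.16, adjusted p = 0.002), and Ndc80 was 35.1, 39.0 and 34.9 CPM against 20.1, 19.7 and 20.8 CPM (0.83 ± 0.07, adjusted p = 2.6e-05). Cdc20 (0.80 ± 0.11) and Nusap1, which bundles spindle microtubules (0.77 ± 0.10), followed. For these 5 genes the groups did not overlap. Markers of other cells moved here too. The summed level of 7 T cell markers was 16.4, 5.59 and 10.5 CPM in SCCVII and 71.7, 73.0 and 43.0 CPM in HPV-negative MEER tumour macrophages. That of the 6 dendritic cell markers was 7.16, 4.30 and 6.59 CPM against 14.1, 9.75 and 11.7 CPM. None of these T cell and dendritic cell markers was at 0. Neutrophil markers summed to 0.171 to 0.239 against 0.934 to 4.77 CPM, with 4 or 5 of 6 at 0. Sums for mast cells and basophils were 0.76 to 1.3 against 3.58 to 4.18 CPM. They were 3.9 to 5.99 against 6.57 to 7.61 CPM for progenitors and 16.8 to 17.6 against 22.0 to 84.7 CPM for fibroblasts. In none of these lists did the groups overlap, and their part in the result was not tested.

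The 5 genes not called in that comparison were Ccnf (0.24, adjusted p = 0.085), Aurka (0.24, adjusted p = 0.087), Ube2c (0.23, adjusted p = 0.083), Cenpa (0.19, adjusted p = 0.14) and Bub1b (0.00, adjusted p = 1). Bub1b was 87.6, 95.1 and 85.2 CPM in SCCVII and 87.7, 89.6 and 87.3 CPM in HPV-negative MEER tumour macrophages, so that these groups overlapped. Cdk1 (0.24 ± 0.07, adjusted p = 0.019) and Plk1 (0.42 ± 0.15, adjusted p = 0.049) were called and lost the call without one of several libraries. For Cdk1 these were HPV-negative library 1 (0.23) and SCCVII libraries 2 (0.20) and 3 (0.23), and for Plk1 every library of these groups but HPV-negative library 2, with values of 0.33 to 0.49. The count of 29 was 8 in a fit of all 23 libraries, colonies included, which also sets the scaling and the filter anew. Against macrophages of HPV-positive MEER tumours all 34 were higher in SCCVII (32.2% of genes were called higher), with a median of 1.60, and the largest change was in Cenpf (2.19 ± 0.17, adjusted p = 4.1e-06) and the smallest in Cenpa (0.66 ± 0.09, adjusted p = 0.00021). Cell markers differed between these groups as well. In SCCVII against HPV-positive MEER tumour macrophages, summed dendritic cell markers were 4.3 to 7.16 against 56.3 to 185 CPM. Epithelial markers were 106 to 129 against 434 to 561 CPM, and T cell markers 5.59 to 16.4 against 44.5 to 75.7 CPM. Macrophage markers were 25022 to 27759 against 17085 to 19312 CPM. The part of these markers in the result was not tested. The 3 macrophage comparisons share libraries, so their changes are not independent.

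In the cultured lines, the HPV-positive form of MEER had more of these transcripts than the HPV-negative form. Of the 34 genes, 31 were higher and none lower (23.2% of 14396 genes were called higher and 23.9% lower), with a median of 0.99 against -0.01 for all genes. Levels of 28 were above every HPV-negative library, as were those of 25% of all genes tested. Cenpf was 81.6, 97.2 and 64.2 CPM in HPV-positive and 35.4, 16.5 and 17.4 CPM in HPV-negative cells (1.81 ± 0.27, adjusted p = 0.00043). Ccnb2, cyclin B2, was 53.4, 63.6 and 38.0 CPM against 17.8, 14.0 and 13.7 CPM (1.76 ± 0.19, adjusted p = 4.8e-05), and Ube2c was 103, 113 and 85.0 CPM against 35.2, 37.6 and 31.7 CPM (1.52 ± 0.13, adjusted p = 1.0e-05). Kif20a, a kinesin of the central spindle (1.77 ± 0.20), and Nusap1 (1.52 ± 0.13) completed the 5 largest.

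The 3 genes of the lines that were not called were Ttk (0.54, adjusted p = 0.063), Ccnb1 (0.06, adjusted p = 0.82) and Cenpa (-0.40, adjusted p = 0.13). Ccnb1 was 116, 142 and 99.0 CPM in HPV-positive and 150, 105 and 84.0 CPM in HPV-negative cells, and Cenpa was 50.3, 59.5 and 34 CPM against 77.8, 56.2 and 54.3 CPM, so that both overlapped. The spread of the HPV-negative line came mostly from its first library, in which Mki67 was 150 CPM against 58.7 and 60.3 CPM in the others and Top2a was 338 CPM against 166 and 167 CPM. Without that library the change of Ttk was called (0.89). Calls for Cenpe, Hmmr, Kif11, Ndc80 and Top2a were lost without at least 1 of the libraries. For Kif11, the motor that separates spindle poles (0.85 ± 0.25, adjusted p = 0.019), these were HPV-negative libraries 2 (0.69) and 3 (0.65) and HPV-positive library 2 (0.80), and for Top2a (0.79 ± 0.25, adjusted p = 0.025) they were HPV-negative libraries 2 (0.61) and 3 (0.63) and HPV-positive library 1 (0.65).

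HPV status thus went with opposite changes in macrophages and in lines, and the difference itself was tested as an interaction over the 18 macrophage and line libraries. It was called for 33 of the 34 genes, all with a lower change in macrophages (21.6% of 15835 genes were called lower in this sense and 19.4% higher), with a median difference of -2.08 against -0.03 for all genes. The largest differences were in Cenpf (-3.09 ± 0.35, adjusted p = 4.3e-06), Ccnb2 (-3.00 ± 0.24, adjusted p = 9.9e-08) and Nusap1 (-2.81 ± 0.17, adjusted p = 7.9e-09). Cks2 had the smallest called difference (-1.21 ± 0.16, adjusted p = 2.2e-05). Cenpa was the gene that was not called (-0.06 ± 0.24, adjusted p = 0.88), and its change was negative in both kinds of sample. The count was 33 under each alternative run, including each library left out in turn.

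**Figure D3:**
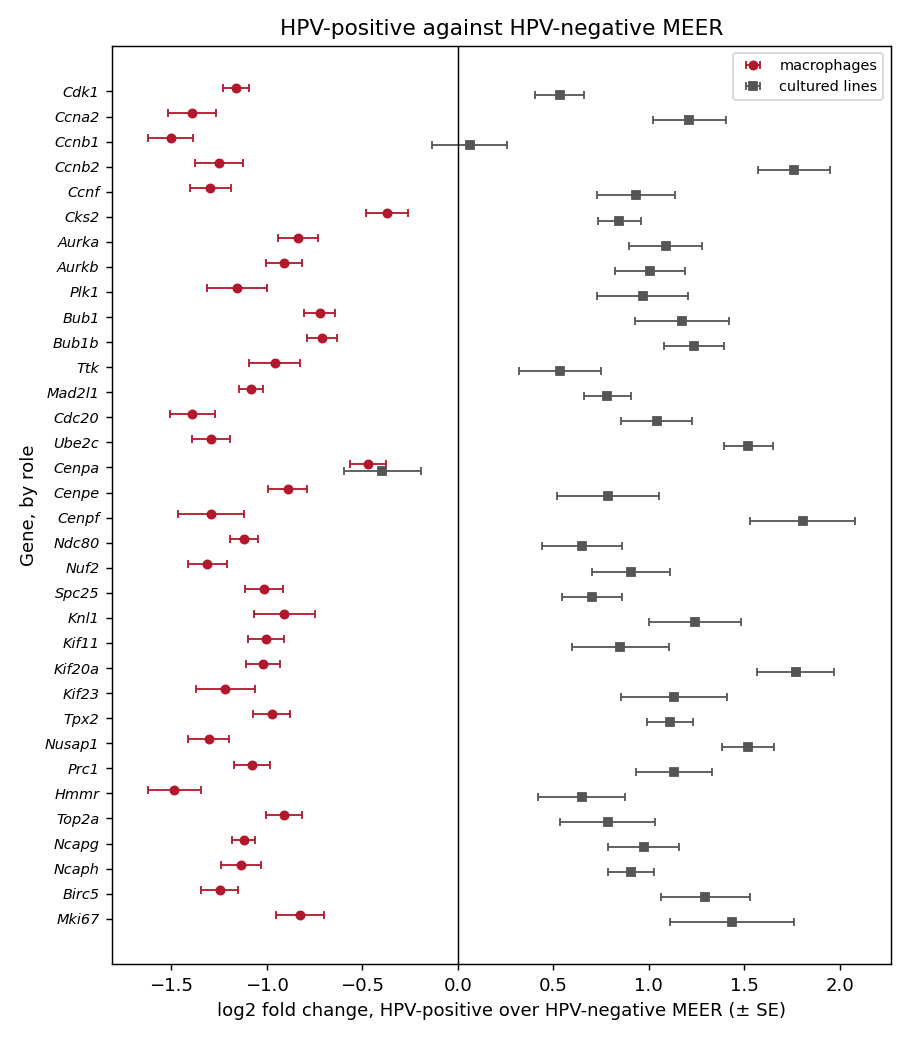
Log2 fold change of HPV-positive over HPV-negative MEER for each of the 34 genes, by role, in macrophages (red circles) and in cultured lines (grey squares), with bars of 1 SE. The macrophage values lie between -1.50 and -0.37, while the line values are above 0 for all genes except Cenpa at -0.40.

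The SCCVII line, compared with the HPV-negative MEER line, had 25 of the 34 genes higher and 1 lower (27.2% of genes were called higher and 31.6% lower), with a median of 0.81. Bub1b was 145, 142 and 140 CPM in SCCVII and 39.6, 25.9 and 27.0 CPM in HPV-negative MEER cells (2.11 ± 0.16, adjusted p = 1.9e-06). Cdc20 was 101, 103 and 107 CPM against 34, 28.7 and 21.0 CPM (1.80 ± 0.19, adjusted p = 2.0e-05), and Nusap1 was 54.8, 53.9 and 52.0 CPM against 19.3, 15.6 and 15.1 CPM (1.59 ± 0.13, adjusted p = 4.3e-06). The groups did not overlap for these 3 genes and overlapped for 8 of the 34. The share of all genes without overlap was not computed for these lines. Cenpa was the 1 gene called lower, with 45.1, 47.3 and 46.3 CPM against 77.8, 56.2 and 54.3 CPM (-0.54 ± 0.20, adjusted p = 0.041), and this call was lost without any library except HPV-negative library 3, with values of -0.61 to -0.35. The count called higher was 18 to 30 with a library left out and 17 in a fit of all 23 libraries.

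Against the HPV-positive MEER line, whose summed level was close to its own, the SCCVII line had 3 genes higher and 11 lower (30% of genes were called higher and 34.1% lower), shares at or below that background. Bub1b (0.87 ± 0.15, adjusted p = 0.00058), Cdc20 (0.76 ± 0.18, adjusted p = 0.0043) and Cks2 (0.38 ± 0.11, adjusted p = 0.012) were higher, the last with 59.7, 60.8 and 54.0 CPM in SCCVII and 37.7, 39.8 and 49.0 CPM in HPV-positive MEER cells. The call for Cks2 was lost without SCCVII library 2 (0.35). Ccnb2 was 26.0, 26.7 and 26.6 CPM against 53.4, 63.6 and 38.0 CPM (-1.06 ± 0.18, adjusted p = 0.00056). Mad2l1, the checkpoint protein MAD2, averaged 42.5 ± 2.65 CPM against 79.3 ± 9.32 CPM (SD, n = 3 each; -0.98 ± 0.12, adjusted p = 5.8e-05), and Ncapg, a condensin subunit, was 59.7, 60.9 and 56.9 CPM against 109, 106 and 102 CPM (-0.93 ± 0.19, adjusted p = 0.0014). The count of 11 was 7 without HPV-positive library 1 or 2 or SCCVII library 1 or 2, 5 without SCCVII library 3 and 4 in a fit of all 23 libraries.

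The difference of the SCCVII change between macrophages and lines was called for 2 genes with a higher change in macrophages and for 10 with a lower one (19.8% and 23.9% of genes). The 2 are below the share over all genes and the 10 are near it, so the counts are no result about the mitotic genes. Bub1b had the largest difference: it was the most changed of the 34 between the SCCVII and HPV-negative MEER lines and was level between their macrophages (-2.17 ± 0.18, adjusted p = 1.1e-07). Cdc20 (-1.07 ± 0.23, adjusted p = 0.0012) and Cenpe, the kinesin that carries chromosomes to the metaphase plate (-0.96 ± 0.31, adjusted p = 0.02), followed, and Cenpe lost its call without HPV-negative line library 2 (-0.79). The genes with a higher change in macrophages were Mad2l1 (0.58 ± 0.14, adjusted p = 0.004) and Cenpa (0.66 ± 0.24, adjusted p = 0.033). The 10 became 20 without HPV-negative line library 1 and 3 in a fit of all 23 libraries, and the 2 became 5 without HPV-negative line library 2 or 3, 0 in a fit of all 23 libraries and 1 without HPV-negative macrophage library 1, HPV-negative line library 1, SCCVII macrophage library 2 or any of the SCCVII line libraries. Cenpa lost its call in those fits, at 0.48 without HPV-negative line library 1 and at 0.58 to 0.67 in the others.

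Set against the line of the same tumour, the macrophages kept a different balance of the 34 genes. In SCCVII 13 genes were higher in macrophages and 10 lower (37.4% and 35.5% of 15835 genes), in HPV-positive MEER none was higher and 33 lower (39.6% and 39.1%), and in HPV-negative MEER 17 were higher and 7 lower (38.7% and 37.4%). In SCCVII both counts were thus near the background or below it. Ncapg had the largest fall in HPV-positive MEER, with 13.1, 13.3 and 13.4 CPM in macrophages and 109, 106 and 102 CPM in the line (-2.83 ± 0.16, adjusted p = 9.1e-11). Cenpa was the gene not called there, with 41.2, 36.9 and 46.1 CPM in macrophages and 50.3, 59.5 and 34 CPM in the line (-0.05, adjusted p = 0.81). Calls in HPV-positive MEER for Mki67 (-0.66 ± 0.27, adjusted p = 0.033) and Bub1b (-0.30 ± 0.13, adjusted p = 0.039) were lost without macrophage library 1 or 2 or line library 1 or 2, at -0.65 to -0.55 for Mki67 and -0.30 to -0.23 for Bub1b.

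The cyclin B genes changed in opposite directions in this contrast in SCCVII and HPV-negative MEER. In SCCVII, Ccnb2 was 71.8, 89.0 and 79.2 CPM in macrophages and 26.0, 26.7 and 26.6 CPM in the line (1.73 ± 0.17, adjusted p = 9.3e-08), whereas Ccnb1 was 62.8, 69.4 and 67.0 CPM in macrophages and 116, 117 and 116 CPM in the line (-0.67 ± 0.17, adjusted p = 0.0023). In HPV-negative MEER, Ccnb2 was 48.2, 55.9 and 58.0 CPM against 17.8, 14.0 and 13.7 CPM (1.96 ± 0.17, adjusted p = 2.8e-08), and Ccnb1 was 39.3, 46.4 and 47.2 CPM against 150, 105 and 84.0 CPM (-1.23 ± 0.18, adjusted p = 8.9e-06). In HPV-positive MEER both were lower in macrophages, Ccnb1 (-2.79 ± 0.19, adjusted p = 9.2e-10) by more than Ccnb2 (-1.05 ± 0.17, adjusted p = 2.4e-05). The ratio of Ccnb1 to Ccnb2 per length, in TPM, was 0.622 to 0.783 in the 9 macrophage libraries and 1.79 to 7.44 in the 9 line libraries, with no overlap. In the 5 colony libraries it was 1.24 to 2.78. This ratio was chosen after the values were seen and is given without a test.

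**Figure D4:**
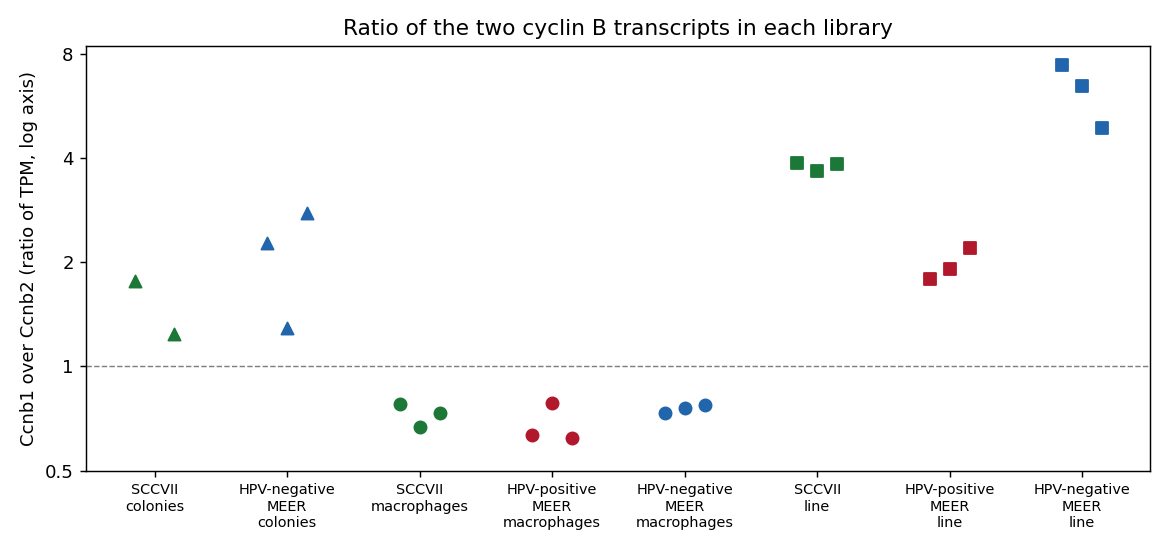
Ratio of Ccnb1 to Ccnb2 (both in TPM, log axis) in each of the 23 libraries, by group, each point being a library and the dashed line a ratio of 1. Macrophage libraries lie between 0.622 and 0.783, line libraries between 1.79 and 7.44 and colony libraries between 1.24 and 2.78.

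Other genes also had a balance that differed between macrophages and lines. Mki67 was 384, 400 and 339 CPM in SCCVII macrophages and 169, 171 and 188 CPM in the SCCVII line (1.22 ± 0.27, adjusted p = 0.00062), and it was higher in HPV-negative MEER macrophages than in that line too (1.59 ± 0.27, adjusted p = 5.6e-05). It made up 12.2 to 16.2% of the summed CPM of the 34 genes in macrophage libraries, 4.38 to 8.64% in line libraries and 4.05 to 11.1% in colony libraries. Birc5 was 75.8, 82.0 and 77.0 CPM in SCCVII macrophages and 40.7, 40.6 and 36.5 CPM in the line (1.13 ± 0.19, adjusted p = 5.3e-05). Aurkb, the Aurora kinase that works with survivin, was 69.3, 72.4 and 69.0 CPM against 38.1, 40.5 and 40.8 CPM (0.96 ± 0.15, adjusted p = 3.3e-05), while Aurka, the Aurora kinase of the spindle poles, was 29.8, 35.3 and 34.1 CPM against 77.5, 77.9 and 73.5 CPM (-1.07 ± 0.16, adjusted p = 1.7e-05). Cks2 was 21.9, 25.6 and 24.0 CPM against 59.7, 60.8 and 54.0 CPM (-1.15 ± 0.11, adjusted p = 1.3e-07). In a fit of all 23 libraries the counts called higher were 5 in SCCVII and 6 in HPV-negative MEER.

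Colonies had less of these transcripts than macrophages of the same tumour. In SCCVII none of the 34 was higher and 32 were lower (29.7% and 22.3% of 16238 genes), with a median of -3.37, and in HPV-negative MEER none was higher and 30 were lower (34% and 28.7%), with a median of -1.48. With the 3 colony libraries of low Csf1r left out, which leaves 1 library a group, the counts lower were 33 and 29. Ccna2 was 3.44 and 4.92 CPM in SCCVII colonies and 128, 150 and 132 CPM in SCCVII macrophages (-5.03 ± 0.71, adjusted p = 0.00045). Kif11 was 2.46 and 3.90 CPM against 74.3, 76.9 and 69.3 CPM (-4.53 ± 0.46, adjusted p = 7.6e-05). Cks2 was 20.9 and 31.8 CPM in SCCVII colonies and 21.9, 25.6 and 24.0 CPM in macrophages and was not called (0.15, adjusted p = 0.62), nor was Ccnf, an F-box cyclin, at 19.2 and 21.1 CPM in colonies (-0.72, adjusted p = 0.4).

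In HPV-negative MEER, Ccnb2 was 15.3, 9.33 and 4.64 CPM in colonies and 48.2, 55.9 and 58.0 CPM in macrophages (-2.46 ± 0.38, adjusted p = 0.00072), the largest fall of the 34. The genes not called were Aurka (-1.12, adjusted p = 0.068), Ccnb1 (-1.02, adjusted p = 0.051), Ccnf (-1.01, adjusted p = 0.16) and Cdk1 (-0.50, adjusted p = 0.14). The first colony library, which kept Csf1r and Adgre1, the gene for F4/80 (1240 CPM), decided these, since all 34 genes were called lower without it. Its summed level of 6 neutrophil markers was 303 CPM, with none of the 6 at 0. That sum was 1.32 and 1.12 CPM in colony libraries 2 and 3 and at most 4.77 CPM in macrophage libraries. The part of this mixed content in the calls was not tested. In the first colony library Mki67 was 114 CPM, against 23.4 and 20.3 CPM in the other colony libraries of the group and 222, 227 and 294 CPM in macrophages. The change of Mki67 (-2.20 ± 0.65, adjusted p = 0.016) was not called without colony library 2 (-1.79). With colony libraries 2 and 3 left out, Cdk1 (0.08) and Ccnf (0.19) were slightly higher in the remaining colony library than in macrophages, and neither was called.

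Colonies were also lower than the lines. None of the 34 was higher and 32 were lower in SCCVII colonies than in the SCCVII line (27.1% and 19.7% of 15995 genes), or none and 34 without SCCVII colony library 2 and the other libraries of low Csf1r. None was higher and 25 were lower in HPV-negative MEER colonies than in the HPV-negative MEER line (28.1% and 25.2%). The second count was 15 without line library 1, 16 without colony library 2 or 3, 34 without colony library 1 and 14, with 1 gene higher, with colony libraries 2 and 3 left out. Hmmr had the largest fall in SCCVII (-4.51 ± 0.50, adjusted p = 0.00014), and Ccnb1 in HPV-negative MEER, with 38.4, 12.8 and 13.3 CPM in colonies and 150, 105 and 84.0 CPM in the line (-2.40 ± 0.43, adjusted p = 0.0014).

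Between the colony groups, 1 gene was higher and 13 were lower in SCCVII than in HPV-negative MEER colonies (20.5% and 19.9% of genes). Kif11 was 2.46 and 3.90 CPM in SCCVII and 31.7, 14.2 and 14.2 CPM in HPV-negative MEER colonies (-2.67 ± 0.42, adjusted p = 0.0014), and Cks2 was 20.9 and 31.8 CPM against 11.5, 10.0 and 8.23 CPM (1.41 ± 0.23, adjusted p = 0.0016). The groups did not overlap for these 2 genes. The count lower was 7 without SCCVII colony library 1 and 33 with the 3 libraries of low Csf1r left out, and the count higher was 4 without HPV-negative colony library 1 and stayed at 1 with the 3 libraries left out. In every comparison with the HPV-negative MEER colonies, which were deposited in a table of their own, group and table cannot be told apart. The change from macrophage to colony differed between the tumours for 15 genes, all with the larger fall in SCCVII (10.6% of genes were called lower in this sense and 13.5% higher). Kif11 (-3.18 ± 0.53, adjusted p = 0.0039), Ccna2 (-2.78 ± 0.79, adjusted p = 0.032) and Nusap1 (-2.74 ± 0.51, adjusted p = 0.0062) had the largest differences. The call for Ccna2 was lost without any of 8 libraries in turn (-3.08 to -2.53). With replicate number added to the fit as a block, the count of 15 was 7. The 15 became 8 without HPV-negative macrophage library 1, SCCVII macrophage library 2 or SCCVII colony library 1, 9 without HPV-negative macrophage library 2, SCCVII macrophage library 1 or 3 or SCCVII colony library 2, and 33 with the 3 libraries of low Csf1r left out.

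Other mitotic genes moved in the same direction as the 34 in macrophages. Of 36 further genes, none was higher and 34 were lower in macrophages of HPV-positive than of HPV-negative MEER tumours (22.8% and 25.9% of all genes tested). Their median was -1.07, and the largest fall was in Ckap2 (-1.74 ± 0.15), a spindle-associated protein. In SCCVII against HPV-negative MEER tumour macrophages 29 were higher and 2 lower (18.7% and 20.5%). In HPV-positive against HPV-negative lines 22 were higher and 2 lower (23.2% and 23.9%). The lower ones in lines were Gtse1 (-1.47) and Zwint (-0.43), and the largest rise was in Aspm (1.58), a spindle-pole protein.

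DNA replication genes, which act in S phase, were followed in the same comparisons. Of 30, 1 was higher and 26 lower in macrophages of HPV-positive than of HPV-negative tumours (22.8% and 25.9% of all genes tested). Their median was -0.47, against -1.10 for the 34 mitotic genes. The largest fall was in Tk1, thymidine kinase (-1.35 ± 0.08). The 1 that rose was Mcm4, a subunit of the replicative helicase, with 170, 149 and 177 CPM in the HPV-positive and 94.7, 90.7 and 81.6 CPM in the HPV-negative group (0.92 ± 0.08, adjusted p = 1.5e-05). In SCCVII against HPV-negative MEER tumour macrophages 20 replication genes were higher and 1 lower (18.7% and 20.5% of all genes), with a median of 0.35. The HPV-positive line had 26 higher and 1 lower than the HPV-negative line (23.2% and 23.9%), with a median of 1.08. The SCCVII line went the other way. It had 1 replication gene higher and 16 lower than the HPV-negative MEER line (27.2% and 31.6%, median -0.58). Against the HPV-positive MEER line 28 were lower (34.1% of all genes, median -1.71). Mcm7 was the 1 higher gene, with 260, 258 and 256 CPM in SCCVII and 115, 98.3 and 117 CPM in HPV-negative MEER cells (1.13 ± 0.10, adjusted p = 4.3e-06).

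The ratio of the summed CPM of the 34 mitotic genes to that of the 30 replication genes was therefore unlike between lines. It was 1.70 to 1.74 in the SCCVII line, 0.545 to 0.746 in the HPV-positive MEER line and 0.61 to 0.70 in the HPV-negative MEER line. In macrophages it was 1.03 to 1.16 in SCCVII, 0.584 to 0.664 in HPV-positive MEER and 0.875 to 1.04 in HPV-negative MEER tumours. In colonies it was 0.666 to 0.707 in SCCVII and 0.709 to 0.841 in HPV-negative MEER. The ratio was chosen after the values were seen and is given without a test.

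**Figure D5:**
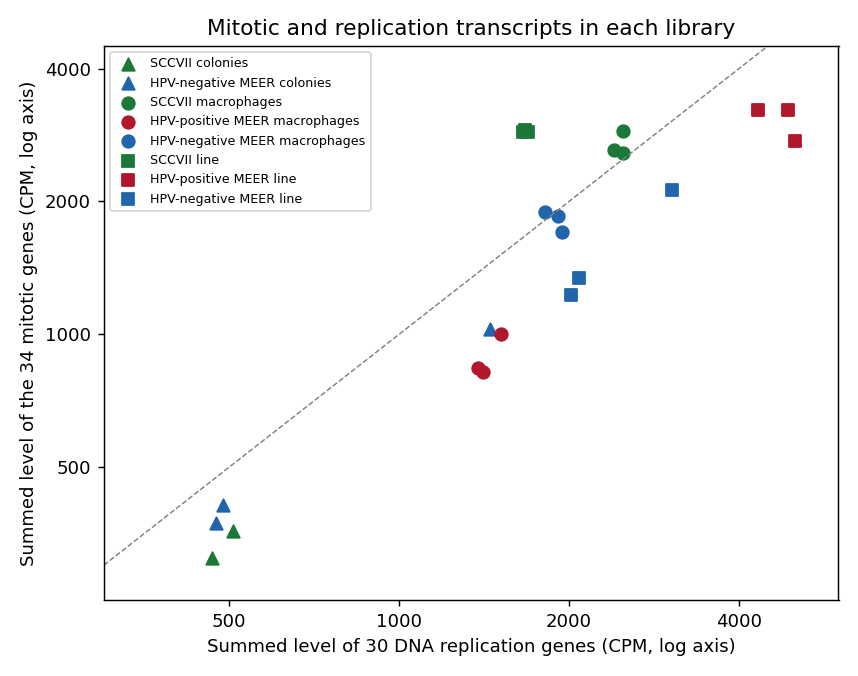
Summed level of the 34 mitotic genes against that of 30 DNA replication genes (both CPM, log axes) in each of the 23 libraries, with equal levels on the dashed line. The SCCVII line lies highest above the line of equality (ratio 1.70 to 1.74), and the HPV-positive MEER line, at 4321 to 5024 CPM of replication transcripts, lies below it.

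Regulators of these genes were read from 18 transcription factors and complex subunits. Foxm1, the factor that activates them in G2, was 21.8, 24.1 and 30.2 CPM in macrophages of HPV-positive and 49.4, 54.0 and 65.8 CPM in those of HPV-negative tumours (-1.13 ± 0.14, adjusted p = 0.00014). It was 90.4, 97.3 and 88.2 CPM in SCCVII tumour macrophages (0.69 against HPV-negative MEER, adjusted p = 0.0027). In lines it was 238, 191 and 158 CPM in HPV-positive and 157, 75.4 and 57.7 CPM in HPV-negative MEER cells (1.01), where the groups did not overlap, by a narrow margin. Most mitotic genes were higher in the SCCVII line than in the HPV-negative MEER line. Foxm1 was 97.7, 95.7 and 100 CPM in the SCCVII line, within the HPV-negative range. Mybl2, which encodes B-MYB, was 14.5, 14.5 and 14.1 CPM against 27.8, 15.1 and 14.8 CPM in the same order of lines. E2f1 was lower too (23.1, 24.5 and 25.6 against 73.1, 62.3 and 62.3 CPM). E2f2 was higher (13.7, 14.1 and 16.5 against 8.72, 6.21 and 5.49 CPM). Of the 18, 3 were higher and 11 lower in macrophages of HPV-positive tumours (22.8% and 25.9% of all genes tested). The 3 were E2f4 (0.28), Lin37 (0.25) and Rbl2 (0.18). These encode parts of the DREAM complex, and so do Lin9 (-0.77), Lin52 (-0.40), Rbbp4 (-0.36), Rbl1 (-0.64), E2f5 (-0.57) and Tfdp1 (-0.22), which were lower, so its subunits did not share a direction. In SCCVII tumour macrophages 10 of the 18 were higher and none lower than in HPV-negative MEER ones (18.7% and 20.5% of all genes). In the HPV-positive line 12 were higher and none lower than in the HPV-negative line (23.2% and 23.9%).

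Inhibitors of cyclin-dependent kinases did not share a direction. Cdkn1a, which encodes p21, was 1053, 962 and 1044 CPM in macrophages of HPV-positive and 238, 261 and 205 CPM in those of HPV-negative MEER tumours (2.15 ± 0.10, adjusted p = 9.4e-07). It was 183, 151 and 159 CPM in SCCVII tumour macrophages (-0.53 against HPV-negative MEER, adjusted p = 0.0023). The groups did not overlap in either comparison, and Cdkn1a thus had the reverse order of the mitotic genes over the 3 macrophage groups. In lines it was 208, 124 and 172 CPM in HPV-positive and 326, 466 and 297 CPM in HPV-negative MEER cells (-1.12). Elsewhere that order did not hold throughout. Cdkn1a was not called between the SCCVII and HPV-negative MEER lines (-0.18, adjusted p = 0.46). In HPV-negative MEER colonies it was lower than in macrophages (-0.82, adjusted p = 0.015) and than in the line (-1.46, adjusted p = 0.0013), where most mitotic genes were lower too. In SCCVII colonies it was higher than in macrophages (0.80, adjusted p = 0.029) and not called against the line (-0.16, adjusted p = 0.67). Of the 7 inhibitors, 2 were higher and 2 lower in macrophages of HPV-positive tumours, near the 22.8% and 25.9% of all genes tested. Besides Cdkn1a these were Cdkn1b (0.57), Cdkn2c (-1.75 ± 0.11) and Cdkn1c (-1.58). Of 8 G1 cyclins and kinases, 1 was higher in the same comparison, Ccnd2 (1.70 ± 0.14), and 3 were lower, Ccne2 (-1.60), Ccnd1 (-1.15) and Cdk4 (-0.22). Beside those shares over all genes, counts of so few genes are no result about either list. Ccnd1, cyclin D1, was 156, 167 and 184 CPM in macrophages of HPV-positive tumours, against 395, 323 and 427 CPM in those of HPV-negative tumours, and these did not overlap.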

How the data were processed

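Per the labels' protocols, poly(A) RNA was sequenced after TruSeq stranded preparation. The authors deposited expected counts, estimated reads per gene that need not be whole, in 2 tables of 20 and 3 libraries, the second holding the HPV-negative MEER colonies, so that any difference between the tables goes with that group. The authors deposited TPM, transcript abundance corrected for length and library size, in the same tables. The submitters' processing notes name STAR 2.5.3a and RSEM 1.3.0 on mm10/GRCm38. The sources used here do not give the strand setting or annotation release. RSEM divides reads among genes they match, so genes with near-identical copies are uncertain. Of all count values 13.1% were not whole.

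Rounded counts entered edgeR 4.0.16 under R 4.3.3, and its quasi-likelihood test was run after TMM scaling. The filter was filterByExpr with a minimum of 10 counts and a total of at least 15, the prior count was 0.125, and p-values had Benjamini-Hochberg adjustment over all genes at 0.05. Fits held the 9 macrophage libraries, the 9 line libraries, the 18 of both, or the 11 colony libraries with the macrophages or lines of the same tumours. Their biological coefficients of variation were 16%, 18.1%, 17.6%, 40.2% and 37.2%. CPM were scaled by TMM over 23 libraries (17014 genes). Replicates of a group differed by more than sampling noise (chi-square per gene at least 3.23). A depth of at least 26848759 counts left no member under 52 counts. Alternatives were RLE size factors, DESeq2 1.42.0, no filter, a fit of all 23 libraries, a replicate block and each library left out.

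Simulated counts for HPV status held 50 changed genes at each of 1.5, 2, 4 and 8-fold. The test recovered 10, 45, 48 and 48 of them in macrophages (13903 genes) and 10, 32, 50 and 49 in lines (14057 genes), with 6 false calls each. Every simulated gene had the same biological coefficient of variation, that of its fit, and no library was set apart. Recovery with the unequal spread of the real genes and libraries was thus not measured. The members and lists were chosen with earlier results of these data known. The rule for names takes 17 fixed members, the 5 largest called changes each way, members not called where at most 5, and up to 3 called genes each way of each other list. Some are left out for length.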

Additional observations from a re-analysis of the deposited data

Results flagged for a closer look

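Results were marked where the change in a pair of groups differed between 2 kinds of sample or 2 tumours by an interaction test of edgeR's quasi-likelihood fit, with Benjamini-Hochberg adjustment over all genes. The change with HPV status was lower in macrophages than in lines for 33 of the 34 genes, against 21.6% of all genes. The largest differences were in Cenpf (-3.09 on the log2 scale), Ccnb2 (-3.00) and Nusap1 (-2.81). The change of SCCVII against HPV-negative MEER was higher in macrophages than in lines for 2 genes and lower for 10, against 19.8% and 23.9% of all genes, so that the 2 are below that share and the 10 near it, with the largest differences in Bub1b (-2.17), Cdc20 (-1.07) and Cenpe (-0.96). The change from macrophage to colony was lower in SCCVII than in HPV-negative MEER for 15 genes, against 10.6% of all genes. That count was 7 with a replicate block and 8 to 22 with a library left out. The largest differences were in Kif11 (-3.18), Ccna2 (-2.78) and Nusap1 (-2.74). The colony libraries of both tumours differed among themselves in macrophage markers. No group had 4 or more libraries, so single libraries were not screened for distance from their group.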

How the results depend on the processing

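Of 5469 values of named members under the alternatives, 5013 kept their direction and side of the threshold, 413 lost the call, 23 gained it and 20 changed sign. The cause of these changes was not tested. With all 23 libraries in the fit, which changes the spread, the scaling and the filter together, members higher in SCCVII than HPV-negative MEER macrophages were 8 (29 as reported), members lower in the SCCVII line were 0 against HPV-negative MEER (1) and 4 against HPV-positive MEER (11), and members higher in macrophages than the line were 6 in HPV-negative MEER (17) and 5 in SCCVII (13). In the same fit, genes called by HPV status in macrophages were 3708 (6853) and genes called for SCCVII against HPV-negative MEER macrophages 2944 (5527). The interaction of SCCVII with sample kind then gave 0 higher (2) and 3 lower (10), and that of colony change with tumour gave 1 higher (0) and 24 lower (15).

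DESeq2 gave 5 members higher in the SCCVII than the HPV-positive MEER line (3), 5 higher in the interaction of SCCVII with sample kind (4 with RLE size factors), and 1 higher, 23 lower and 5904 genes called (3921) in the colony interaction. Leaving out a library in turn gave 0 to 1 members lower in SCCVII than HPV-negative MEER lines and 5 to 11 lower in SCCVII than HPV-positive MEER lines. It gave 1 to 4 higher and 7 to 19 lower between colonies, and 15 to 34 lower in HPV-negative MEER colonies than the line. It gave 1 to 5 higher and 7 to 20 lower in the interaction of SCCVII with sample kind, and 0 to 2 higher, 8 to 22 lower and 2535 to 6949 genes called in the colony interaction. Leaving out the 3 colony libraries of low Csf1r was chosen after seeing the data, and the lone colony libraries are then assumed to vary like the other groups. It gave 33 members lower between colonies (13), 1 higher and 14 lower in HPV-negative MEER colonies than the line (25), and 33 lower in the colony interaction.

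The labels do not tie libraries by replicate number, and same-number correlations ran from -0.127 to 0.345. The highest were between the colony groups, at 0.345 for libraries 1 and 0.165 for libraries 2, so pairing of colonies is not excluded. A replicate block gave 7 members lower (15) and 1457 genes called (3921) in the colony interaction, and Cenpa changed sign in the HPV interaction (0.0363). Other counts under the block were within 1.5 times those reported. Changes near 0 also turned sign. Bub1b in SCCVII against HPV-negative MEER macrophages (-0.0005) was 0.0062 with RLE and with DESeq2, 0.0123 without a filter, 0.0184 with all libraries, and 0.0033, 0.0154 and 0.0361 without HPV-negative library 2 and SCCVII libraries 1 and 3, and with a library left out it ranged from -0.0478 to 0.0361. Ccnb1 between MEER lines (0.06) was -0.10 without HPV-negative library 3 and -0.08 without HPV-positive library 2, in a range of -0.1024 to 0.3178. Cenpa in HPV-positive macrophages against the line (-0.05) was 0.03 without macrophage library 2 and 0.14 without line library 2, in a range of -0.2447 to 0.1379. Cenpa in the HPV interaction (-0.06) was 0.01 without HPV-negative line library 2, 0.02 without library 3 of that line, 0.01 without HPV-positive macrophage library 2 and 0.12 without HPV-positive line library 2, in a range of -0.266 to 0.1172. Without the colony libraries of low Csf1r, Cdk1 (0.0847) and Ccnf (0.19) were above HPV-negative MEER macrophages without a call, and Cks2 was -0.21 in SCCVII colonies. With a library left out Cks2 ranged from -0.206, without SCCVII colony library 2, to 0.427. The median of all genes moved by over 0.1 in the fit of all 23 libraries for macrophages against the line, to -0.11 in HPV-negative and -0.15 in HPV-positive MEER.

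No member had under 52 counts in any library, and the SCCVII colonies rest on 2 libraries.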
